A study of Mus musculus with 2 samples.

Results

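Mir744 is a microRNA gene on the minus strand of mouse chromosome 11, within an intron of Map2k4. It is 1 of the 2202 microRNA genes in the deposited tables. Its row was found by matching the tables' gene identifiers to GENCODE M21 symbols, and its reads were taken from the own-strand counts. The gene was selected on its share of counted reads in these same libraries, so its level is given as a description and without a test.

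The study sequenced microRNAs from cortical RNA (left hemisphere) of 2 female mice, 10 days old. Both were B6CASTF1/J mice from The Jackson Laboratory, first-generation hybrids of C57BL/6J and CAST/EiJ, and the labels name no treatment or added allele. The labels number the females differently and call the libraries biological replicates, although both share a donor entry, so the spread between animal 1 and animal 2 may be partly technical. There is 1 group and no contrast between conditions.

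A microRNA gene is transcribed as part of a longer RNA that folds into a hairpin. Drosha cuts the hairpin out in the nucleus and Dicer cuts it again, which leaves a duplex of a 5p and a 3p strand. A strand loaded into an Argonaute protein guides it to messenger RNAs, mainly through the seed, its bases 2 to 8. Many hairpins lie in introns and can be cut from the transcript of the host gene before or during splicing. Map2k4 encodes MKK4, a kinase that activates the stress kinases JNK and p38, both of which act in developing neurons.

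The hairpin is shown first because its interval is that of the counted gene. It spans chr11:65734733-65734832 on the minus strand (RefSeq, GRCm38.p6, the build also called mm10), which is the interval GENCODE M21 gives to ENSMUSG00000076460.1. Read 5′ to 3′, with both mature strands in capitals, it is 100 bases long:

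Mir744 hairpin: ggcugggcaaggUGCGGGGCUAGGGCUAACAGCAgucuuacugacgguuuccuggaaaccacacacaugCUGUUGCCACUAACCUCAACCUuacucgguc

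The mature strands are given below with their seeds in capitals, since the seed decides which messenger RNAs a microRNA can pair with.
miR-744-5p: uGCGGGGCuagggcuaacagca
miR-744-3p: cUGUUGCCacuaaccucaaccu

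Each strand is 22 bases long. The 5p strand lies at bases 13 to 34 of the hairpin (65734799 to 65734820), the 3p strand at bases 70 to 91 (65734742 to 65734763), and 35 bases separate them. In the structure predicted by RNAfold, with a minimum free energy of -44.8 kcal/mol, 16 bases of the 5p strand pair with the 3p strand. The hairpin was longer than 81.7% of the 1005 RefSeq hairpins available here, whose median length was 79 bases. Its predicted folding energy for its length was less unusual: 32.3% of the hairpins folded with a lower energy per base.

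The seed of the 5p strand, GCGGGGC, holds only G and C. Of 1738 mature strands in the RefSeq table, 15 had such a seed (0.863%), miR-744-5p included. Among the 530 mature strands of genes detected in the cortex libraries (at least 10 CPM, or reads scaled to a common library size, in both animals), 5 did. Mir744 had the highest level of the genes that make them, followed by Mir128-1, Mir128-2, Mir296 and Mir673. They are printed here with seeds in capitals to show how these G- and C-rich seeds differ.
miR-744-5p: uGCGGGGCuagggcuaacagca
miR-128-1-5p: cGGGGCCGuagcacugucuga
miR-128-2-5p: gGGGGCCGaugcacuguaagaga
miR-296-5p: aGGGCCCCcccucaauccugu
miR-673-3p: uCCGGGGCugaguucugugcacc

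The tables sum both arms of a hairpin, so the levels of these genes are not levels of the strands printed. Mir128-1 stood at 16214 CPM ± 1304 (SD, n = 2), 2.09-fold below Mir744, Mir128-2 at 5851 ± 309.9, Mir296 at 5417 ± 1192 and Mir673 at 887 ± 251. Mir128-1 and Mir128-2 are copies by symbol, which makes their levels uncertain. The 5p strand of Mir744 has 63.6% G and C, more than 85.1% of the mature strands of detected genes. The 3p strand has 50%, the median of those strands.

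Neither Mir744 seed occurred in another listed gene. Of the 1736 other mature strands, 0 shared bases 2 to 8 with either strand. This is common: 68.0% of the mature strands in the table had a seed found in no other gene, and 60.8% of those of detected genes. Mir744 therefore belongs to no seed family within the table, which does not list every mouse microRNA. The closest matches to the 5p seed, with the shared bases in capitals, show where in another strand its letters are found.
miR-7036a-5p: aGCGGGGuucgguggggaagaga
miR-12197-3p: GCGGGGCuggggacaucg
miR-5126: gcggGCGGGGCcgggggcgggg

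Only miR-7036a-5p matched bases 2 to 7 at the same place. The other two hold the 7 letters at bases 1 to 7 and 5 to 11. Their genes were near the limit of counting: Mir7036 had 21 reads in animal 1 and 1 in animal 2, and Mir5126 had 19 and 3. The gene of miR-12197-3p was not analysed here.

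Mature strands with copies elsewhere lose reads to the class of multiply mapped reads, which held 42.7% of all reads in animal 1 and 40.4% in animal 2. For Mir744, neither mature sequence was identical to any of the 1736 other mature strands. In 141767 GENCODE M21 transcripts, each sequence occurred in 1, that of Mir744 itself, and no other transcript held a run of 16 of its bases on either strand. Introns and intergenic DNA were not searched, since no genome sequence was used.

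Within Map2k4 (chr11:65688243-65788297, minus strand), the hairpin lies 53465 bases after the start of the longest annotated transcript, Map2k4-201, which has 11 exons. There it sits in the intron between exons 3 and 4, 359 bases after exon 3 and 15129 bases before exon 4, in an intron of 15588 bases. GENCODE M21 lists 7 Map2k4 transcripts, of which 5 span the hairpin. Transcript Map2k4-204 starts closer to it, 11006 bases upstream. In Map2k4-203 and Map2k4-205, which skip the exon just before the hairpin, the nearest upstream exon is 21436 bases away and the intron 36665 bases long. Map2k4-202 and Map2k4-206 start downstream and do not contain Mir744. Map2k4 is the only annotated gene that overlaps it.

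**Figure D1:**
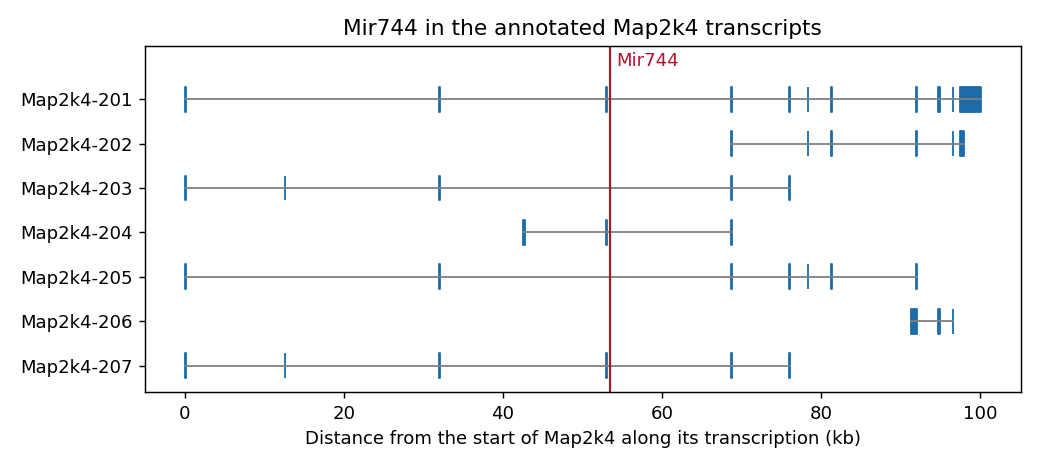
Annotated transcripts of Map2k4 (rows, GENCODE M21), with exons as blue bars (to scale, except that the outline widens the shortest) and introns as grey lines, against the distance in kb from the start of the gene along its transcription. The red line marks Mir744, 359 bases after exon 3 of Map2k4-201. It crosses 5 of the 7 transcripts.

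Mir744 was among the microRNA genes with the most counted reads in these cortex libraries. It had 119287 reads in animal 1, of 3806078 counted to microRNA genes, and 95105 of 2602935 in animal 2. This is 3.13% of counted reads in animal 1 (exact Clopper-Pearson 95% interval 3.12 to 3.15) and 3.65% in animal 2 (3.63 to 3.68). The intervals, which cover counting error only, do not overlap. In CPM, Mir744 stood at 31341 and 36538, a mean of 33939 ± 3674 (SD, n = 2). An SD over 2 animals reflects only the gap between them. The gene yielded about 1 in 31.9 counted reads in animal 1 and 1 in 27.4 in animal 2. For comparison, the median microRNA gene with any read had 27 reads in animal 1 and 18.5 in animal 2.

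The reads of Mir744 lay wholly on its own strand. Its opposite strand had 0 reads in both animals, which allows up to 0.788 CPM in animal 1 and 1.15 CPM in animal 2. No annotated gene runs against it, and its unstranded counts, 119287 and 95105, equalled the own-strand counts. Over all reads of the libraries, mapped or not, Mir744 took 1.05% in animal 1 and 1.11% in animal 2.

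Multiply mapped reads were not counted, which lowers genes with copies in the order of levels. In that order Mir744 ranked 8 in both animals. Mir770 (3.68 and 4.19% of counted reads in animals 1 and 2) and Mir487b (3.41 and 4.13%), both of the imprinted Dlk1-Dio3 region, came just before it. Mir744 was below each of them in both animals. Its range over the animals overlapped that of Mir487b, whose mean was 1.11-fold higher, although Mir487b was the higher within each animal (129788 against 119287 reads in animal 1, and 107545 against 95105 in animal 2). Its highest value, 3.65%, was just under the lowest value of Mir770. Mir127 (4.52 and 4.36%), Mirlet7g (5.48 and 7.08%) and Mirlet7i (6.29 and 8.06%) stood further above.

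Below Mir744 the levels dropped. The next gene by mean CPM was Mir99a, with 2.57 and 2.19% of counted reads, a mean 0.701 times that of Mir744. Mirlet7e followed at 2.10 and 2.23%, Mir149 at 2.65 and 1.11%, Mir99b at 2.19 and 1.57%, and the endothelial Mir126a at 2.89 and 0.826%. None of these 5 reached the lower of the Mir744 values, 3.13%, in either animal. Mir126a, Mir149, Mir99a and Mir99b were higher in animal 1, in share, and Mir744 and Mirlet7e in animal 2.

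**Figure D2:**
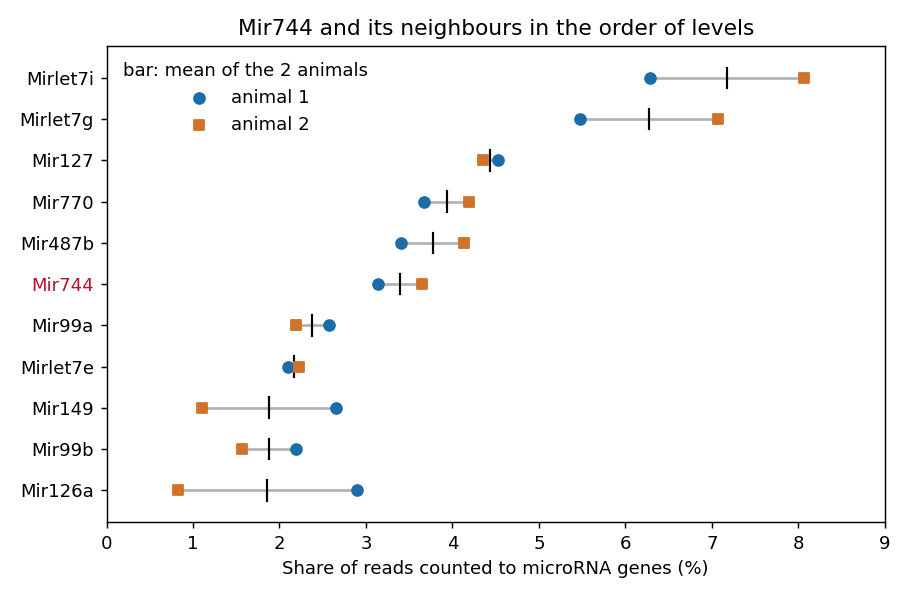
Share of reads counted to microRNA genes, in percent, for Mir744 and the 5 genes on each side of it in the order of mean CPM. Circles are animal 1, squares animal 2, and black bars the mean of both. Mir744 lies between 3.13 and 3.65%, overlaps Mir487b only, and stands clear of the 5 genes below it.

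Mir744 was higher in animal 2. After TMM scaling, which sets the libraries to a common level over most genes, it stood at 29211 CPM in animal 1 and 39202 CPM in animal 2. The log2 ratio of animal 1 to animal 2 was -0.42 (exact 95% interval -0.44 to -0.41), or 1.34-fold higher in animal 2 (1.33 to 1.35). By an exact binomial test over 531 genes, with Benjamini-Hochberg adjustment, the adjusted p was under 1e-300. The same test called 51.6% of all genes tested, 26.9% as higher in animal 1 and 24.7% as higher in animal 2, so a call by itself does not set Mir744 apart. It compares these 2 libraries against counting noise and no conditions.

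Set against other genes, the Mir744 difference was moderate. Of the 531 tested genes, 300 (56.5%) had a larger absolute log2 ratio. Of the 102 genes at 1000 CPM or more, 47 did (46.1%), and their median absolute log2 ratio was 0.39. Among these abundant genes 62 were called higher in animal 2 and 30 in animal 1, with a median log2 ratio of -0.19, and Mir744 lay -0.24 from that median. The split depended on the scaling: library totals only gave 47 and 48, beside 91 and 189 of all 531 genes, with a median of 0.02. DESeq2 size factors gave 71 and 25, beside 146 and 128 of all genes, with a median of -0.24. Without TMM scaling, the coefficient of variation of the CPM of Mir744 over the animals was 10.8%. The median was 13.6% in the abundant genes, of which 42 varied less than Mir744. The common biological coefficient of variation estimated by edgeR over the 531 genes was 38.0%, and its estimate for Mir744 was 30.8%. That estimate is drawn toward the trend of other genes at its level, 33.9%, so it is no direct measure of the spread of Mir744. The direction held under each scaling: the log2 ratio was -0.22 with library totals only and -0.48 with DESeq2 size factors. Library totals place the median of all genes at 0.25 and TMM at 0.04. Mir744 lay -0.47 from that median under either scaling, since a scaling shifts all genes alike.

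The 5 genes at 1000 CPM or more whose ratio was nearest to that of Mir744, over 2 libraries, were Mir1983 (log2 ratio -0.44), Mir181d (-0.41), Mir708 (-0.44), Mir378a (-0.45) and Mir770 (-0.39). They lay within 0.031 of Mir744 on the log2 scale. Mir708 lies in an intron of Tenm4, Mir378a in an intron of Ppargc1b and Mir181d in an intron annotated to Nanos3. With 2 libraries such likeness rests on a single difference per gene. Only Mir770 was also alike in level; the others stood between 1926 CPM (Mir708) and 5712 CPM (Mir181d).

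**Figure D3:**
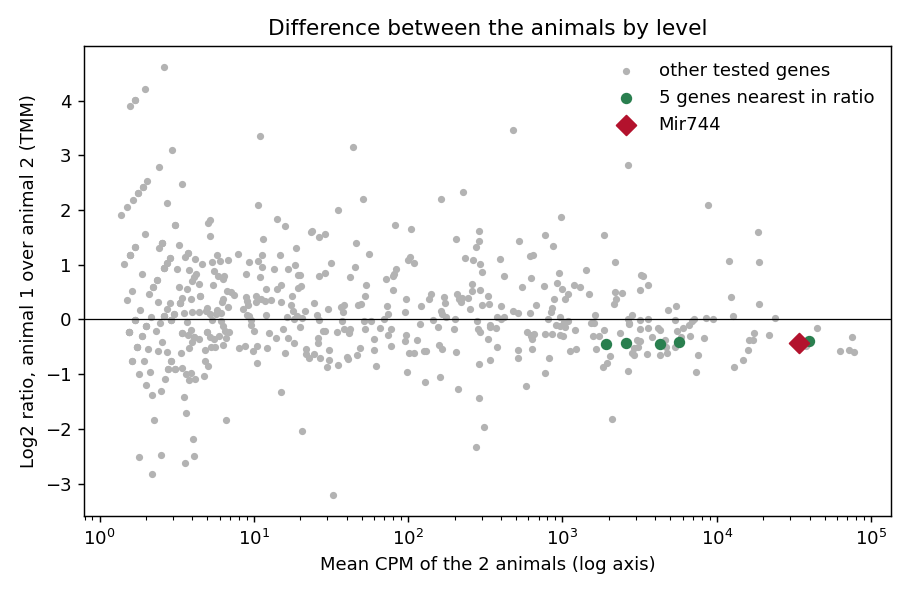
Log2 ratio of animal 1 over animal 2 after TMM (vertical) against the mean CPM of both animals (horizontal, log axis) for the 531 tested genes. Mir744 (red diamond) lies at -0.42, and the 5 abundant genes nearest to it in ratio (green) lie between -0.45 and -0.39.

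Markers of cell types were read beside this difference, as bulk tissue cannot tell fewer cells of a type from less RNA per cell. The 9 listed neuronal genes, which include Mir128-1, Mir137 and Mir132, were all detected and held 4.26% of counted reads in animal 1 and 4.23% in animal 2. Their log2 ratios ran from -0.37 to 1.34 with a median of 0.01. Mir744, at -0.42, lay just past the lowest, Mir128-1 at -0.37, with Mir128-2 (-0.31) and Mir132 (-0.30) next. Several of the 9, Mir128-1 and Mir128-2 among them, are copies by symbol, so their levels are uncertain. Of the 9, 4 were called higher in animal 1 and 3 in animal 2, beside 143 and 131 of all 531 tested genes. With library totals only these were 6 and 3, beside 189 and 91 of all genes, and with DESeq2 size factors 3 and 4, beside 128 and 146. Endothelial Mir126a had a log2 ratio of 1.60. The pair Mir143 and Mir145a of smooth muscle and pericytes summed to 0.315 and 0.452% in animals 1 and 2. The 3 oligodendrocyte genes summed to 0.119 and 0.164%, the 4 blood and microglial genes to 0.0837 and 0.115%, and the 3 ciliated cell genes to 0.0240 and 0.0744%. Of the oligodendrocyte genes, Mir219a-2 and Mir338 were called higher in animal 2, but Mir219a-1, with 77 and 4 reads, in animal 1. The 3 erythroid genes summed to 0.00780 and 0.00465%, with Mir451a and Mir144 called higher in animal 1 and Mir486 not called. Mir204 of the choroid plexus stood at 0.0865 and 0.0751% and was not called, with a log2 ratio of 7.1e-05. Of striated muscle genes 4 of 5 had 0 reads, with the list at 0.00208 and 0.00280%, and Mir122 of liver stood at 0.00426 and 0.00419%. The 4 muscle genes with 0 reads are copies by symbol, whose reads can be lost to multiple mapping. Their 0 reads therefore do not show that their RNA was absent. The part of these cell types in the Mir744 difference was not tested.

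By its place in an intron of a protein-coding gene of the same strand, Mir744 shares its location with 732 other microRNA genes. This class of 733 genes held 36.8% of counted reads in animal 1 and 38.2% in animal 2, and 113 of its genes were detected (15.4%, against 13.9% of all 2202 genes). Mir744 supplied 8.53% of the class's reads in animal 1 and 9.57% in animal 2. It ranked 3 in the class in both animals, after Mir139 (7.48% ± 0.438 of counted reads), in an intron of Pde2a and of Gm45837, and Mirlet7g (6.28% ± 1.13), in an intron of Wdr82. Below it came Mirlet7e (2.17% ± 0.0932) and Mir99b (1.88% ± 0.443) in introns of Spaca6, and Mir149 (1.88% ± 1.09) in Gpc1. Mir652 (1.72% ± 0.146) in Tmem164, Mir128-1 (1.62% ± 0.130) in R3hdm1, Mir23b (1.29% ± 0.416) in 2010111I01Rik, Mir151 (0.754% ± 0.162) in Ptk2 and Mir342 (0.690% ± 0.0597) in Evl followed. The median detected gene of the class had 292 CPM.

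Of 238 tested genes of the class, 55 were called higher in animal 1 and 53 in animal 2, with a median log2 ratio of 0.09; over all 531 tested genes these were 143 (26.9%) and 131 (24.7%), with a median of 0.04. The split in the class depended on the scaling, as it did over all 531 genes. Library totals gave 70 and 37, beside 189 and 91 of all genes. DESeq2 size factors gave 50 and 57, beside 128 and 146. Mir744, at -0.42, was among the 53. Of the 48 genes of a list of microRNAs with well-known intronic hosts, 41 were detected and 2 were above Mir744 by mean CPM, Mir139 and Mirlet7g. Not all of the list belong to the class by annotation. Mir140, Mir26a-2, Mir93, Mir25 and Mir330 overlap exons of same-strand protein-coding genes, and Mir328 lies opposite Elmo3. In that list 14 genes were called higher in animal 1 and 21 in animal 2, with a median log2 ratio of -0.23. With library totals only these were 17 and 19, with a median of -0.03, and with DESeq2 size factors 14 and 23, with a median of -0.28.

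The distance of Mir744 to the exon before it was short for its class. Of the 733 intronic genes 19.1% lay closer to their upstream exon than its 359 bases, and the median distance was 3245 bases. Among the 113 detected genes the share was 21.2% and the median 2860 bases. The exon after it was far, at 15129 bases, and 70.3% of the class lay closer to their downstream exon. The intron was longer than 57.0% of the introns that hold genes of the class.

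**Figure D4:**
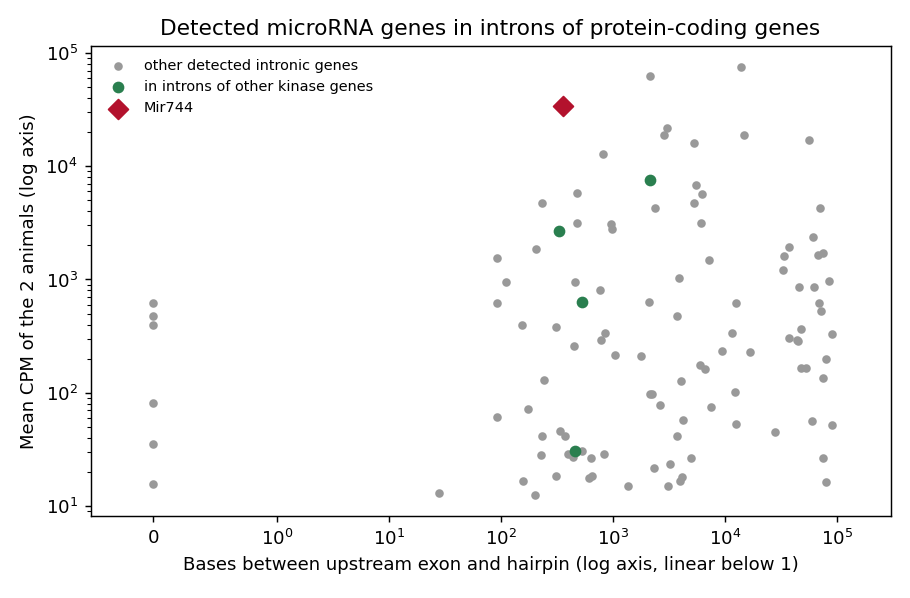
Mean CPM of both animals (vertical, log axis) against the number of bases between the hairpin and the nearest exon upstream (horizontal, log axis that is linear below 1) for the 113 detected genes in introns of same-strand protein-coding genes. Mir744 (red diamond) stands at 33939 CPM and 359 bases, and the genes in introns of other kinase genes (green) are lower in level.

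A list of microRNAs in introns of kinase genes held Mir744 and 5 others. Mir151, in the focal adhesion kinase gene Ptk2, had 24347 and 22617 reads in animals 1 and 2, or 7543 CPM ± 1621, a level 4.50-fold below Mir744. Mir107, in the pantothenate kinase gene Pank1, had 7591 and 8687 reads, 12.7-fold below. Mir338, in the tyrosine kinase gene Aatk, had 2287 and 1732 reads, 53.6-fold below. Mir103-2 in Pank2 (102 and 89 reads) and Mir103-1 in Pank3 (13 and 16 reads) are copies by symbol, so their low levels are uncertain.

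With Mir744 included, 5 of these 6 genes were called higher in animal 2 and 0 in animal 1, with TMM. So were 24.7% of all tested genes in animal 2, and 62 of the 102 genes at 1000 CPM or more. Mir744 was already known to be higher in animal 2, and Mir103-1 and Mir103-2 were chosen after their sequences or values were seen. The tally is therefore a description and no test of kinase hosts. Mir107, Mir103-1 and Mir103-2 are of the same family, in introns of Pank genes, so the list holds fewer separate cases. The log2 ratio was -0.64 for Mir151, -0.95 for Mir107, -0.35 for Mir338 and -0.56 for Mir103-2, all past the exact binomial test after adjustment. Mir103-1 had a log2 ratio of -1.04 (interval -2.23 to 0.10) and did not pass. All 6 values were below 0 under each of the 3 scalings, as were 251 of the 531 tested genes with TMM, 192 with library totals only and 268 with DESeq2 size factors. With library totals only 4 of the 6 were called higher in animal 2, beside 91 of all 531 and 47 of the 102. Mir744 was nearer to 0 than the list's median of -0.60, and the median over all tested genes was 0.04.

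On its chromosome Mir744 stood alone. It took 41.4% of the reads of the 137 microRNA genes of chromosome 11 in animal 1 and 59.9% in animal 2, although 67 of them had a read and 21 were detected. The nearest listed microRNA genes were 667 kb away on the lower side (Gm25991) and 1365 kb on the higher side (Mir6923), and both had 0 reads. Further out, Gm24275 and Mir6406 also had 0 reads, Mir3062 had 5 in each animal, and Mir5100 had 17 and 5. Mir744 is thus no part of a cluster of counted hairpins in these libraries.

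The other chromosome 11 genes at 1000 CPM or more numbered 7. Mir324 held 1.02 and 0.885% of counted reads in animals 1 and 2, Mir22 1.46 and 0.296%, and the activity-regulated Mir132 0.652 and 0.697%. Mir195a held 0.472 and 0.0580%, Mir423 0.286 and 0.0847%, Mir21a 0.0973 and 0.125%, and Mir497 0.126 and 0.0837%. All were below Mir744 in both animals. Beside the larger part that Mir744 had of the chromosome's reads in animal 2 stood log2 ratios of 2.10 for Mir22, 2.82 for Mir195a and 1.55 for Mir423, which were higher in animal 1.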

How the data were processed

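Short RNA libraries (insert sizes under 30 bases per the labels) were sequenced from 2 cortex samples. The deposited tables hold raw read counts per microRNA gene in 3 columns (both strands, own strand, opposite strand), made by the authors on mm10 with GENCODE M21 per the notes beside the tables; the sources used here name no aligner or counter. The strand columns were identified by their totals, and 4 rows of unassigned reads in each table, 66.5 and 69.6% of all reads in animals 1 and 2, entered neither library sizes nor tests. All 2202 identifiers matched GENCODE M21.

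CPM and shares were computed from own-strand counts, with exact Clopper-Pearson 95% intervals; a count of 0 allows 3 counts. Reads carry no molecular identifiers that the files show. The libraries were compared by a two-sided exact binomial test given TMM effective sizes (edgeR 4.0.16), over the 531 genes with at least 10 reads in all, with 0.5 added to counts for ratios, Benjamini-Hochberg adjustment and a threshold of 0.05. A quasi-likelihood fit has no residual degrees of freedom here; edgeR gave the biological coefficient of variation from an intercept-only design. Counts of 531 genes were simulated with counting noise only, some of them changed. Of the genes changed 1.25-fold the test called 42.0%, at 1.5-fold 48.0%, at 2-fold 62.0% and at 3-fold 78.0%. It called 1.81% of the unchanged genes. The simulation left out variation between animals and error in the scaling, so these rates do not carry over to the real libraries. Alternatives were DESeq2 1.42.0 size factors, library totals, other filters, the unstranded column and other denominators. Of the 2202 genes, 968 had a RefSeq hairpin sequence and 1018 a mature one, by symbol; hairpins were folded with RNAfold at its default settings. R 4.3.3, Python 3.11.15, scipy 1.17.1, numpy 2.4.6 and pandas 2.3.3 were used.

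Mir744, the lists and the tests were chosen with earlier results of these data known. The named genes are the 5 above and 5 below Mir744 by mean CPM, the 5 nearest in ratio at 1000 CPM or more, the 10 highest other intronic genes, the 3 nearest microRNA genes on each side, chromosome 11 genes at 1000 CPM or more, genes sharing a seed, and up to 4 members of each list. Mir103-1 and Mir103-2, which complete the kinase list, Mir7036, Mir5126 and the genes with seeds of only G and C were chosen after their sequences or values were seen.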

Additional observations from a re-analysis of the deposited data

How the results depend on the processing

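Among single-copy genes by symbol the rank of Mir744 stayed 8 by construction, since no gene above it is a copy by symbol. This does not address reads that copies lost to multiple mapping. Mir744 also ranked 8 in the unstranded column and in either animal alone. Its share of counted reads ran from 3.13 to 3.65% when either animal was left out and was 3.65% in the unstranded column. With other totals it changed by construction: 1.08% of all reads, and 6.48% when the 10 most abundant other genes were removed from the total. Its log2 ratio stayed below 0 and past the test under library totals, DESeq2 size factors, both other filters (-0.37 with no filter beyond 1 count, -0.39 with 100 counts) and the unstranded column (-0.41). The share of tested genes with a larger absolute log2 ratio was 56.5% with TMM and 53.5% with DESeq2 size factors, but 74.6% with library totals only, where the Mir744 ratio is closer to 0. The number of detected intronic genes, 113 at 10 CPM, was 227 at 1 CPM and 70 at 100 CPM. In the fixed list of known hosts 41 were detected, but it holds fewer genes and not all are annotated to introns. With 2 animals, leaving either out gives no ratio. The depth of Mir744, at least 95105 reads, leaves little counting error, so the spread between the animals sets its precision.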
